A study of Rattus norvegicus with 6 samples.

Results

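The genes of the cytosolic ribosome were examined in liver RNA from 3 animals of the HFD group and 3 animals of the HTG group. Members were the protein-coding rows whose symbol is that of a cytosolic ribosomal protein, Rpl or Rps followed by a number and at most 1 letter, or Rplp0, Rplp1, Rplp2 or Rpsa. The rule used no measured value. It found 79 of the 32930 rows of the deposited table, 48 genes of the large subunit and 31 of the small subunit. Both groups ate a high-fat diet. The HFD group also received the vehicle, 0.5% sodium carboxymethyl cellulose, and the HTG group received HTG, the Huazhuo Tiaozhi granule, a herbal preparation. In the study's methods for rats, the drugs were given in the same vehicle. The design text gives 12 weeks for the interventions, while in the study's methods the diet ran that long and the gavage started some weeks into it. No group on a normal diet was part of the comparison. The labels name rats in the organism field and in the design text, the RNA sequencing methods name C57BL/6 J mice, and the gene rows carry mouse Ensembl identifiers, so values were read as mouse genes and the species could not be settled. The treatment field of the HTG samples spells the drug HCG. The rats of the study's methods were male Wistar rats, the sex of the mice is not given in the sources used here, the age of neither is, and the design counts 6 animals for the 6 libraries.

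The cytosolic ribosome translates all mRNAs transcribed in the nucleus. Its large subunit forms peptide bonds and holds the exit tunnel for the nascent chain, and its small subunit binds the mRNA and decodes it. Nearly all ribosomal proteins are present in equal number in a ribosome, and the hepatocyte, which secretes most plasma proteins, holds many ribosomes. The mRNAs of these proteins begin with a run of pyrimidines, the terminal oligopyrimidine motif, through which the kinase complex mTORC1 controls their translation.

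The pyrimidine run was looked for at the annotated start of the members, in RefSeq promoters of the rat assembly GRCr8, the only sequences used here; a member was matched by its symbol, and 63 of the 79 matched. The run was a C followed by at least 4 bases that are C or T, on the gene's own strand, starting between 10 bases before and 10 bases after the annotated start. It was present in 47 of 63 members (74.6%), 29 of 39 in the large subunit (74.4%) and 18 of 24 in the small subunit (75.0%), and in 9660 of all 33469 promoters of the same length (28.9%). A match describes these letters only. The 30 bases around the start, 15 on each side, are shown for members at both ends of the range of fold changes, because the same kind of start was found at both ends. Capitals mark the run. The members shown with higher counts in the HTG group are Rpl38 (chr10:100200420-100200449, plus strand), Rps28 (chr7:15311319-15311348, minus strand), Rps27 (chr2:177964592-177964621, minus strand) and Rpl36 (chr9:1533765-1533794, plus strand).

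Rpl38: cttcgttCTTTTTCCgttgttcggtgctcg
Rps28: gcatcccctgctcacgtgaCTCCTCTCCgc
Rps27: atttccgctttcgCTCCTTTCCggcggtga
Rpl36: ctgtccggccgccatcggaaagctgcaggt

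Those with lower counts in the HTG group are Rplp0 (chr12:46718376-46718405, minus strand), Rps4x (chrX:71342907-71342936, minus strand), Rpl4 (chr8:73566462-73566491, plus strand) and Rpl5 (chr14:1995211-1995240, minus strand).

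Rplp0: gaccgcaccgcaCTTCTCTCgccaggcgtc
Rps4x: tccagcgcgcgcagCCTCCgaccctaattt
Rpl4: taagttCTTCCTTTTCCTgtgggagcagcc
Rpl5: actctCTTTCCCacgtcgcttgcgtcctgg

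Rpl36 held no such run in this window, and the other 7 did. The median log2 fold change, HTG over HFD, was 0.32 over the 46 tested members with the run (34 fitted higher and 12 lower) and 0.34 over the 16 tested members without it (12 higher and 4 lower).

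The libraries held between 50648778 and 90563477 estimated counts. Over all genes and libraries, a count of 4 occurred 6450 times, 3 occurred 2549 times and 5 occurred 1757 times. A fragment was therefore assumed to be worth about 4 counts, although counts of 1 and 2, which were not tallied, also occurred. Depth was taken on that assumption as 12662194 to 22640869 fragments. The limit that a gene at 0 allows was then 3 fragments, or 12 counts, for counting error only. Levels are given below as CPM, counts scaled to the library's total and normalised by the TMM method of edgeR, and differences as log2 fold changes of HTG over HFD with their standard error (SE) from edgeR's quasi-likelihood test. Each adjusted p was corrected over all 18455 genes that passed the expression filter (Benjamini-Hochberg). With 3 libraries against 3, an exact permutation test of a single value cannot go below p = 0.1. All 10 hepatocyte markers were present, and their summed level was 86968 to 104040 CPM in the HFD libraries and 87692 to 90449 CPM in the HTG libraries. HFD libraries 2 and 3 stood apart in the members: HFD library 2 had the highest level of the HFD group in 43 of 46 tested large subunit genes and 29 of 31 small subunit genes, and HFD library 3 the lowest in 38 and 30. HTG library 3 had the lowest level of its group in 34 large and 26 small subunit genes. The same counts over all genes are not given here. The rows of the mitochondrial genome ranged from 4.97% to 6.45% of all counts (HFD) and from 9.31% to 15.2% (HTG), and with these rows left out the median log2 fold changes of the large and small subunit were 0.39 and 0.27, as with them.

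Most large subunit genes were fitted higher in the HTG group. Of the 46 tested (Rpl3l and Rpl39l did not pass the filter), 37 were fitted higher and 9 lower, with a median log2 fold change of 0.39 and a range from -0.81 (Rplp0) to 1.56 (Rpl38), where the median over all genes tested was 0.03. In edgeR 0 members had an adjusted p under 0.05, as 0.0108% of all genes tested did. At an adjusted p under 0.1, 11 were higher and 0 lower, against 5.41% and 5.43% of all genes. An unadjusted p under 0.05 was reached by 20 genes on the higher and 2 on the lower side, against 12.3% and 12.4% of all genes. The groups did not overlap in 19 genes, 17 higher and 2 lower in the HTG group, against 16.5% and 15.5% of all genes. At an adjusted p under 0.05, DESeq2 called 11 large subunit genes higher and 1 lower (Rplp0), where it called 6.6% and 8.14% of all genes, and limma on log2(FPKM + 0.1) called 3 higher and 0 lower, where it called 2.98% and 5.05%.

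In the small subunit, too, more genes were fitted higher than lower. Of 31, all tested, 21 were fitted higher and 10 lower, with a median of 0.27 and a range from -0.66 (Rps4x) to 1.10 (Rps27). None passed an adjusted p of 0.05 in edgeR, and 4 were on the higher and 0 on the lower side at an adjusted p under 0.1, beside 5.41% and 5.43% of all genes. The unadjusted p was under 0.05 in 8 and 1, beside 12.3% and 12.4%. The groups did not overlap in 10 genes, 8 higher and 2 lower, beside 16.5% and 15.5% of all genes. DESeq2, at an adjusted p under 0.05, called 5 higher and 1 lower (Rps4x), beside 6.6% and 8.14%, and limma 1 and 0, beside 2.98% and 5.05%. The difference between the medians of the subunits was not tested.

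These counts depended on single libraries, as did those of all genes. Genes higher at an unadjusted p under 0.05 numbered 12 in the large subunit without HFD library 3 and 13 without HFD library 1 or HTG library 2. They numbered 14 without HTG library 1 and 21 without HFD library 2 or HTG library 3. In the small subunit they numbered 5 with HFD library 3, HTG library 1 or HTG library 2 left out. Without HFD library 1, HTG library 3 or HFD library 2 they numbered 7, 8 and 10. Over all genes they numbered 2275 with every library and 1541 to 2134 with each left out. At an adjusted p under 0.1, leaving out any library left 0 to 6 large and 0 to 2 small subunit genes higher. Over all genes, that threshold called 0 in either direction when HTG library 2, HTG library 3 or HFD library 3 was dropped, 9 higher and 7 lower without HFD library 2, 203 and 214 without HFD library 1, and 1002 and 1576 without HTG library 1, the fit that left 6 large and 2 small subunit genes higher and 2 and 1 lower. The median of the small subunit moved to 0.12 without HTG library 1, 0.16 without HFD library 3, 0.40 without HTG library 3 and 0.46 without HFD library 2, and that of the large subunit stayed between 0.34 and 0.54. Scaled by the size factors of DESeq2 or by the upper quartile, the medians were 0.36 and 0.43 in the large subunit and 0.24 and 0.31 in the small subunit.

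**Figure D1:**
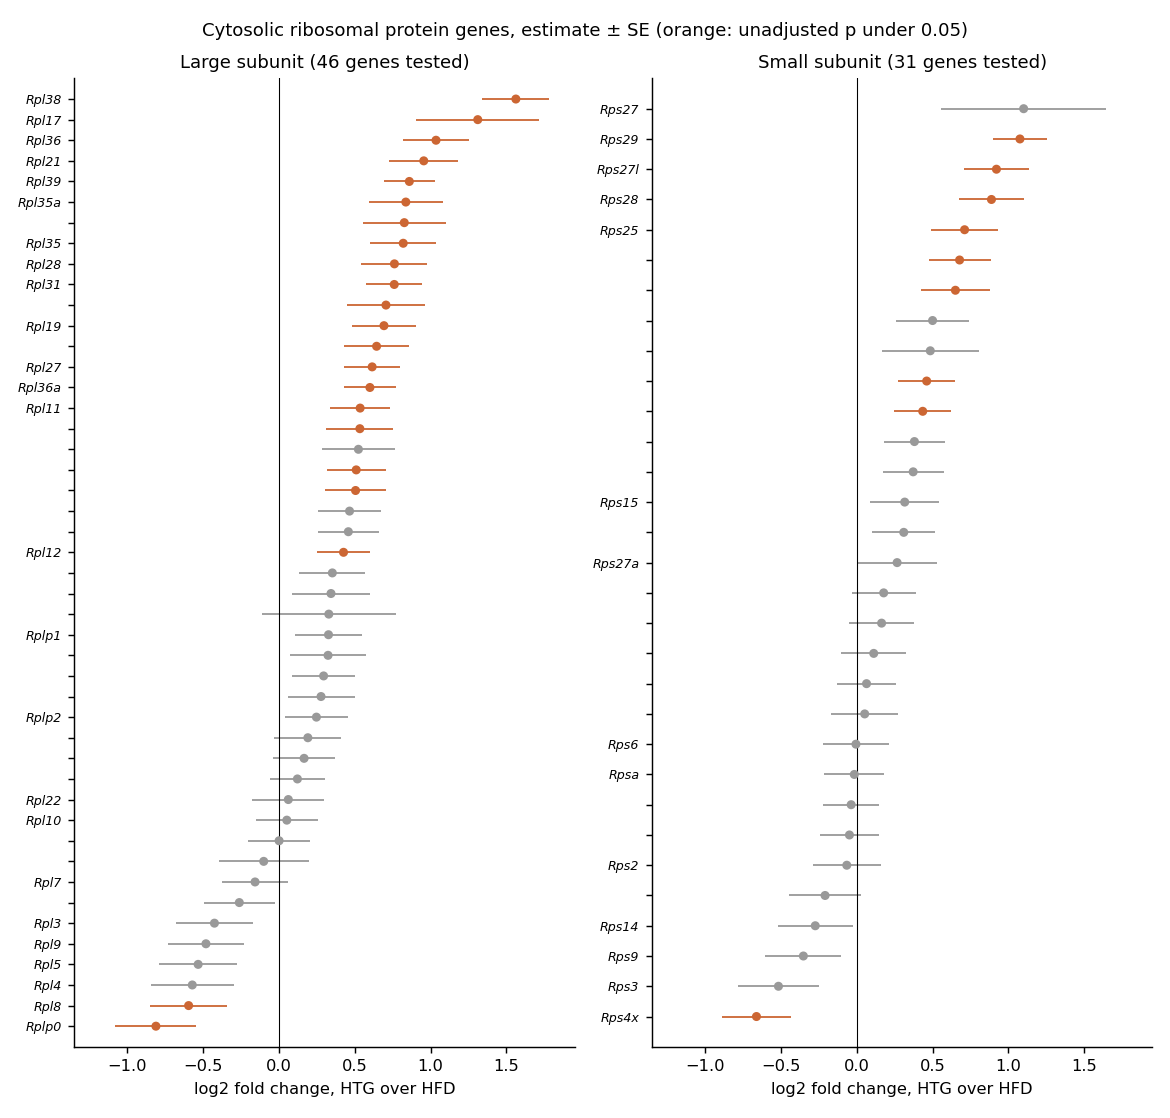
The log2 fold change of each tested ribosomal protein gene, HTG over HFD, is drawn with its SE for the large subunit (left, 46 genes) and the small subunit (right, 31 genes), with genes at an unadjusted p under 0.05 in orange and the symbol beside the genes described in the text. Rpl38 at 1.56 and Rplp0 at -0.81 are the ends of the large subunit, and 37 and 21 genes lie above 0.

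The large subunit gene with the highest fold change was Rpl38 (ENSMUSG00000057322, chromosome 11, 114559350 to 114563157; coordinates are those of the deposited table, which names no build). Its protein lies on the surface of the subunit and is known for a tissue-specific part in the translation of Hox mRNAs. Rpl38 had 9.57, 13.0 and 7.53 CPM in HFD libraries 1, 2 and 3 and 30.4, 31.7 and 26.7 CPM in HTG libraries 1, 2 and 3. Every HTG library was above every HFD library, and the HTG libraries lay close together. The log2 fold change was 1.56 (SE 0.22, adjusted p = 0.0538), or 2.95-fold higher, and it stayed between 1.39 and 1.79 when each library was left out. Its 2 pseudogene rows held 18.7% of its own counts, and with them added the log2 fold change was 1.29. Rpl36 (ENSMUSG00000057863, chromosome 17, 56920416 to 56921243), another small protein of the subunit's surface, had 39.9, 51.3 and 33.2 CPM in HFD libraries 1, 2 and 3 and 87.2, 97.4 and 70.3 CPM in HTG libraries 1, 2 and 3. Its groups did not overlap, with HFD library 3 lowest and HTG library 2 highest, and the log2 fold change was 1.04 (SE 0.22, adjusted p = 0.0601).

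Rpl39 (ENSMUSG00000079641, chromosome X, 36346173 to 36349055) encodes a very short protein that lines the exit tunnel. It had 13.6, 16.2 and 12.0 CPM in HFD libraries 1, 2 and 3 and 25.8, 24.9 and 25.2 CPM in HTG libraries 1, 2 and 3. The HTG libraries differed among themselves by less than the HFD libraries did, and all lay above them, with a log2 fold change of 0.86 (SE 0.17, adjusted p = 0.0582). Rpl35 and Rpl31, whose proteins sit around the mouth of the tunnel, had log2 fold changes of 0.82 (SE 0.22, adjusted p = 0.078) and 0.76 (SE 0.18, adjusted p = 0.0655), without overlap of the groups. The other members at an adjusted p under 0.1 without overlap were Rpl35a (0.84), Rpl28 (0.76), Rpl19 (0.69), Rpl27 (0.61) and Rpl36a (0.60), with adjusted p between 0.0891 and 0.0992, together with Rpl21.

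Rpl17 and Rpl21 share sequence with many processed pseudogenes that have rows of their own, so their values are uncertain. Rpl17, whose protein also borders the tunnel, had 35.3, 38.5 and 25.01 CPM in HFD libraries 1, 2 and 3 and 51.4, 142 and 52.0 CPM in HTG libraries 1, 2 and 3. HTG library 2 stood far above the others, and the log2 fold change was 1.31 (SE 0.41, adjusted p = 0.102) with it and 0.65 without it. Its 8 pseudogene rows held 358% of the counts of Rpl17 itself, and with them added the log2 fold change was 0.33. Rpl21 had 21.4, 23.9 and 18.2 CPM in HFD libraries 1, 2 and 3 and 52.0, 41.1 and 29.8 CPM in HTG libraries 1, 2 and 3, without overlap, and a log2 fold change of 0.95 (SE 0.23, adjusted p = 0.0637). Its 11 pseudogene rows held 157% of its own counts, and with them added the log2 fold change was 0.45.

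At the other end stood Rplp0 (ENSMUSG00000067274, chromosome 5, 115697526 to 115701786), which anchors the stalk that recruits the elongation factors to the ribosome. It had 485, 600.2 and 485 CPM in HFD libraries 1, 2 and 3 and 404, 216 and 275 CPM in HTG libraries 1, 2 and 3. All HTG libraries were below all HFD libraries, and HTG library 2 was lowest. The log2 fold change was -0.81 (SE 0.27, adjusted p = 0.115, unadjusted p = 0.0155), 1.75-fold lower, and between -1.14 and -0.62 with each library left out. Its partners in the stalk, Rplp1 and Rplp2, which bind it as dimers, had estimates of the other sign. Rplp1, the member with the highest FPKM (354, mean of 6 libraries), had 163, 195 and 139 CPM (HFD) and 249.99, 175 and 197 CPM (HTG) and a log2 fold change of 0.33 (SE 0.22, adjusted p = 0.395), which turned to -0.02 with the trend by gene length removed. Rplp2 had 69.1, 81.1 and 53.4 CPM (HFD) and 92.3, 80.4 and 68.9 CPM (HTG) and 0.25 (SE 0.21, adjusted p = 0.499), and in both genes the groups overlapped. Rpl12, at the base of the stalk, had 227, 226 and 219.9 CPM (HFD) and 301, 296 and 307 CPM (HTG), without overlap and with little spread within each group, and a log2 fold change of 0.43 (SE 0.17, adjusted p = 0.173).

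Rpl8 (ENSMUSG00000003970, chromosome 15, 76788278 to 76790514), a core protein close to the peptidyl transferase centre, had 266, 408 and 282 CPM in HFD libraries 1, 2 and 3 and 256, 209 and 166 CPM in HTG libraries 1, 2 and 3. HFD library 2 was well above the others, the groups did not overlap by a narrow margin, and the log2 fold change was -0.60 (SE 0.25, adjusted p = 0.191). Rpl4, which reaches into the exit tunnel, had 528, 603 and 479.5 CPM in HFD libraries 1, 2 and 3 and 482, 244 and 359 CPM in HTG libraries 1, 2 and 3. The groups overlapped, since HTG library 1 was above HFD library 3, with -0.57 (SE 0.27, adjusted p = 0.240). Rpl3, at the peptidyl transferase centre, had 229, 210.4 and 331 CPM (HFD) and 239, 165 and 169 CPM (HTG) and a log2 fold change of -0.43 (SE 0.25, adjusted p = 0.336), and Rpl9 had 95.3, 141 and 82.4 CPM (HFD) and 90.8, 75.6 and 62.0 CPM (HTG) and -0.48 (SE 0.25, adjusted p = 0.274). In both, HTG library 1 lay among the HFD libraries. Rpl3 was at -0.20 without HFD library 3 and Rpl9 at -0.23 without HFD library 2, which also left Rpl8 at -0.38, and Rpl4 was at -0.35 without HTG library 2 and -0.88 without HTG library 1. Rpl10, a late-joining protein needed to release subunits for translation, was at 464, 554 and 408 CPM (HFD) and 512, 509 and 458 CPM (HTG), with 0.05 (SE 0.20, adjusted p = 0.903).

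Rpl5 and Rpl11 bind the 5S ribosomal RNA together, and the particle they form binds Mdm2, the ubiquitin ligase of p53. Rpl5 had 266, 365 and 239.9 CPM in HFD libraries 1, 2 and 3 and 257, 186 and 158 CPM in HTG libraries 1, 2 and 3, and Rpl11 had 209, 216 and 161 CPM in HFD libraries 1, 2 and 3 and 289, 300.2 and 261 CPM in HTG libraries 1, 2 and 3. In Rpl5 the groups overlapped through HTG library 1, and in Rpl11 every HTG library was above every HFD library. Their log2 fold changes were -0.53 (SE 0.26, adjusted p = 0.243) and 0.54 (SE 0.20, adjusted p = 0.145), opposite in sign; without HFD library 2 that of Rpl5 was -0.34, neither passed the adjusted threshold, and the difference between them was not tested.

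In the small subunit Rps29 (ENSMUSG00000034892, chromosome 12, 69204496 to 69205960), a zinc-binding protein of the subunit's head, had 16.8, 16.6 and 12.1 CPM in HFD libraries 1, 2 and 3 and 34.4, 31.9 and 29.6 CPM in HTG libraries 1, 2 and 3. The groups were well apart, and the log2 fold change was 1.08 (SE 0.18, adjusted p = 0.0538), or 2.11-fold higher, between 0.94 and 1.15 with each library left out. Rps28 (ENSMUSG00000067288, chromosome 17, 34038001 to 34043536), near the exit of the mRNA channel, had 15.3, 17.1 and 11.02 CPM in HFD libraries 1, 2 and 3 and 29.3, 29.0 and 21.9 CPM in HTG libraries 1, 2 and 3. All HTG libraries were above all HFD libraries, with 0.89 (SE 0.21, adjusted p = 0.0641). Its row overlaps Kank3 on the opposite strand. The rows of Rpl12, Rpl28, Rpl31, Rpl35, Rps14, Rps25 and further members also overlap rows on the opposite strand. The sources do not say if counts were made by strand. Rps25, needed for initiation at some viral mRNAs, had, without overlap, a log2 fold change of 0.71 (SE 0.22, adjusted p = 0.104).

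Rps27 and Rps27l are paralogs that encode nearly the same zinc finger protein, and reads could be divided between them. Rps27 (ENSMUSG00000090733, chromosome 3, 90119829 to 90120955) had 21.3, 17.2 and 4.43 CPM in HFD libraries 1, 2 and 3 and 18.5, 47.6 and 26.1 CPM in HTG libraries 1, 2 and 3. HFD library 3 was far below the others and HTG library 1 lay within the HFD range, so the highest fold change of the small subunit, 1.10, had a wide error (SE 0.55, adjusted p = 0.256), and it was 0.64 without HTG library 2 and 0.67 without HFD library 3. Rps27l (ENSMUSG00000036781, chromosome 9, 66853368 to 66856798) had 43.7, 50.7 and 32.0 CPM in HFD libraries 1, 2 and 3 and 82.5, 88.7 and 68.3 CPM in HTG libraries 1, 2 and 3, without overlap, and 0.92 (SE 0.21, adjusted p = 0.062). Rps4x, encoded on the X chromosome (101228547 to 101233000), was the lowest of the subunit, with 218, 283 and 217 CPM in HFD libraries 1, 2 and 3 and 190.2, 139 and 124 CPM in HTG libraries 1, 2 and 3. The groups did not overlap, and the log2 fold change was -0.66 (SE 0.23, adjusted p = 0.127, unadjusted p = 0.0196), 1.58-fold lower.

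Of the remaining genes with the lowest fold changes, all had an adjusted p above 0.1. Rps3, at the entry of the mRNA channel, had 180.2, 267 and 177 CPM in HFD libraries 1, 2 and 3 and 170.2, 164 and 102 CPM in HTG libraries 1, 2 and 3, a narrow separation of the groups, and a log2 fold change of -0.52 (SE 0.27, adjusted p = 0.273). Rps9 and Rps14 had log2 fold changes of -0.35 (SE 0.25, adjusted p = 0.421) and -0.27 (SE 0.25, adjusted p = 0.525), with overlapping groups. Without HFD library 2 the log2 fold changes of Rps3, Rps9 and Rps14 were -0.30, -0.13 and -0.04. Rps2, the member of this subunit with the highest FPKM, had 634, 682 and 523 CPM (HFD) and 703, 497 and 557 CPM (HTG) and -0.07 (SE 0.22, adjusted p = 0.886), and Rps15, next by FPKM, had 161, 210.4 and 146 CPM (HFD) and 235, 239 and 169 CPM (HTG) and 0.32 (SE 0.23, adjusted p = 0.427).

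Rps6, the substrate of the S6 kinases downstream of mTORC1, had 353, 415 and 298 CPM in HFD libraries 1, 2 and 3 and 398, 361 and 303 CPM in HTG libraries 1, 2 and 3. The groups covered the same range, with a log2 fold change of -0.01 (SE 0.21, adjusted p = 0.991), whose sign changed with the settings. Rpsa, also known as a laminin receptor, had 566, 607 and 571 CPM (HFD) and 661, 515 and 549 CPM (HTG) and -0.02 (SE 0.20, adjusted p = 0.972), likewise without a stable sign. Rps27a, made as a fusion with ubiquitin, had 101, 142 and 96.7 CPM (HFD) and 155, 159 and 93.2 CPM (HTG) and 0.27 (SE 0.26, adjusted p = 0.564). Fau, a fusion of a ubiquitin-like protein with a small subunit protein, had 98.0, 129.7 and 82.5 CPM (HFD) and 143, 150.1 and 103 CPM (HTG) and 0.35 (SE 0.24, adjusted p = 0.395), and Rack1, the signalling scaffold of the small subunit, had 263, 375 and 296 CPM (HFD) and 276, 232 and 217 CPM (HTG) and -0.37 (SE 0.21, adjusted p = 0.329). Both overlapped between the groups, and the symbol rule finds neither.

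**Figure D2:**
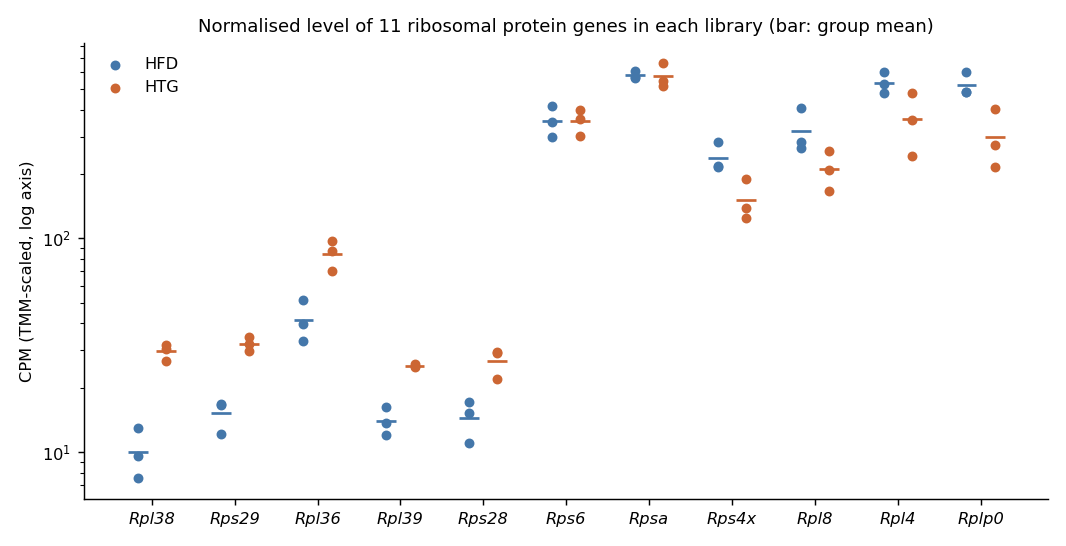
The CPM of 11 ribosomal protein genes in each library is drawn on a log axis, HFD in blue and HTG in orange, with a bar at the group mean. The 5 genes at the left, Rpl38 to Rps28, have HTG points above all HFD points, Rps6 and Rpsa overlap, and of the 4 at the right Rps4x, Rpl8 and Rplp0 have all HTG points below the HFD points.

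Both rarer forms of large subunit proteins, Rpl3l, known from muscle, and Rpl39l, known from testis, did not pass the expression filter. In HFD libraries 1, 2 and 3 the counts were 10, 0 and 0 for Rpl3l and 0, 12 and 19 for Rpl39l, and in the HTG group they were 10, 36 and 0 for Rpl3l and 0 throughout for Rpl39l. Most of these values were at or under the limit of 12 counts. Rpl22 had 58.4, 75.2 and 46.8 CPM (HFD) and 73.1, 67.4 and 47.8 CPM (HTG) and a log2 fold change of 0.06 (SE 0.24, adjusted p = 0.900), while its paralog Rpl22l1 had 13.0, 9.73 and 7.85 CPM in HFD libraries 1, 2 and 3 and 17.9, 17.3 and 23.9 CPM in HTG libraries 1, 2 and 3. The groups of Rpl22l1 did not overlap, and its log2 fold change was 0.95 (SE 0.23, adjusted p = 0.0662). Rpl7l1, the relative of Rpl7, had -0.48 (SE 0.21, adjusted p = 0.213). Rps4l, listed as a transcribed processed pseudogene, had 0.34 (SE 0.20, adjusted p = 0.341). It and 2 further rows with a matching symbol, Rpl6l and Rpl32l, are not protein coding and were not members.

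Summed over the genes, the members took overlapping shares of the counts in both groups. The share of the large subunit was 0.761%, 0.834% and 0.671% (HFD libraries 1, 2 and 3) and 0.919%, 0.927% and 0.692% (HTG libraries 1, 2 and 3). That of the small subunit was 0.503%, 0.553% and 0.431% (HFD) and 0.587%, 0.571% and 0.428% (HTG). In both subunits the groups overlapped: HTG library 3 lay among the HFD libraries for the large subunit and below them for the small subunit. The means differed by 0.0903 percentage points in the large subunit and 0.0326 in the small subunit, HTG above HFD, and by -0.0226 and -0.0460 points as shares of the summed FPKM, so the sign depended on the unit. Out of totals without the mitochondrial rows the differences were 0.168 and 0.0794 points, and with each library left out they went from 0.0484 (without HFD library 3) to 0.167 (without HTG library 3) in the large subunit and from 0.00042 to 0.0830, by the same libraries, in the small subunit. The ratio of large to small subunit counts was 1.51, 1.51 and 1.56 (HFD) and 1.57, 1.62 and 1.62 (HTG), a mean of 1.53 ± 0.0269 (SD, n = 3) against 1.60 ± 0.0319 (SD, n = 3). The groups were adjacent without overlap.

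Single members can be set against each other within a library. For every 100 counts of Rplp0, Rpl38 had 1.97, 2.16 and 1.55 (HFD libraries 1, 2 and 3) and 7.52, 14.7 and 9.71 (HTG libraries 1, 2 and 3). Likewise, for every 100 counts of Rps4x, Rps29 had 7.72, 5.86 and 5.60 (HFD) and 18.1, 23.0 and 23.8 (HTG). These pairs were chosen after their values were seen, from the ends of the range of fold changes, so that their groups had to differ. The order of the members by mean CPM was nearly kept between the groups (Spearman's rho 0.92 over 77 genes of the same 6 libraries, a description), and their spread was smaller in the HTG group, with an SD of log2 CPM of 1.10 against 1.39. The highest member had 61.1 times the CPM of the lowest in the HFD group and 25.6 times in the HTG group. On the scale per length, the SD of log2 FPKM over the members was 1.37 to 1.46 in the HFD libraries and 1.20 to 1.30 in the HTG libraries. The same spreads over all genes are not given here. Spearman's rho between fold change and mean FPKM was -0.28 over the members and -0.11 over 18454 genes, also a description.

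**Figure D3:**
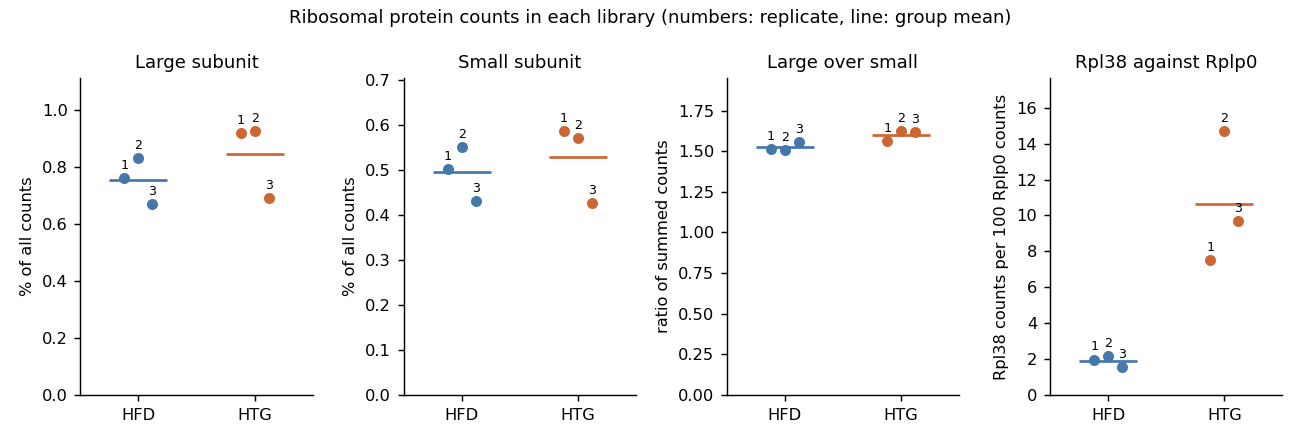
Each point is a library, numbered by replicate, with a line at the group mean. The panels give the percent of all counts in large subunit genes, the same for the small subunit, the ratio of large to small subunit counts, and Rpl38 counts per 100 Rplp0 counts. The groups overlap in both shares, and in the last panel the HFD libraries lie between 1.55 and 2.16 and the HTG libraries between 7.52 and 14.7.

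Fold change differed with gene length, in the members and in all genes. A length for each gene was computed from the ratio of its counts to its FPKM, which was the same in every library, with a median SD of 0.0185 on the log2 scale over 3801 genes. It covers all transcripts joined under the gene and not the main mRNA alone. All 9 members under 1 kb were fitted higher, with a median log2 fold change of 0.51, where the other genes of that length had a median of 0.38 and 1206 of 1804 were fitted higher. Between 1 and 1.5 kb the median of 13 members was 0.52 and that of other genes 0.25, and between 1.5 and 2 kb that of 19 members was 0.33 and that of other genes 0.12. The 20 members between 2 and 3 kb had 0.12 against 0.04, and the 16 members of 3 kb or more had 0.11 against -0.04. Spearman's rho between fold change and length was -0.37 over the 77 members (-0.32 in the large and -0.46 in the small subunit) and -0.16 over 18314 genes, which come from the same 6 libraries and are not independent. With the trend of fold change on length removed over all genes, the medians were 0.24 in the large and 0.10 in the small subunit, and an unadjusted p under 0.05 was reached by 14 large subunit genes on the higher and 3 on the lower side, and by 5 and 1 small subunit genes, where 2140 and 2225 of 18314 genes reached it. At an adjusted p under 0.1 there were then 3 higher and 1 lower in the large subunit and 2 and 1 in the small subunit, and 847 and 873 over all genes. Rpl38 then had a log2 fold change of 1.22, Rpl36 0.64, Rps29 0.78 and Rplp0 -0.97.

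**Figure D4:**
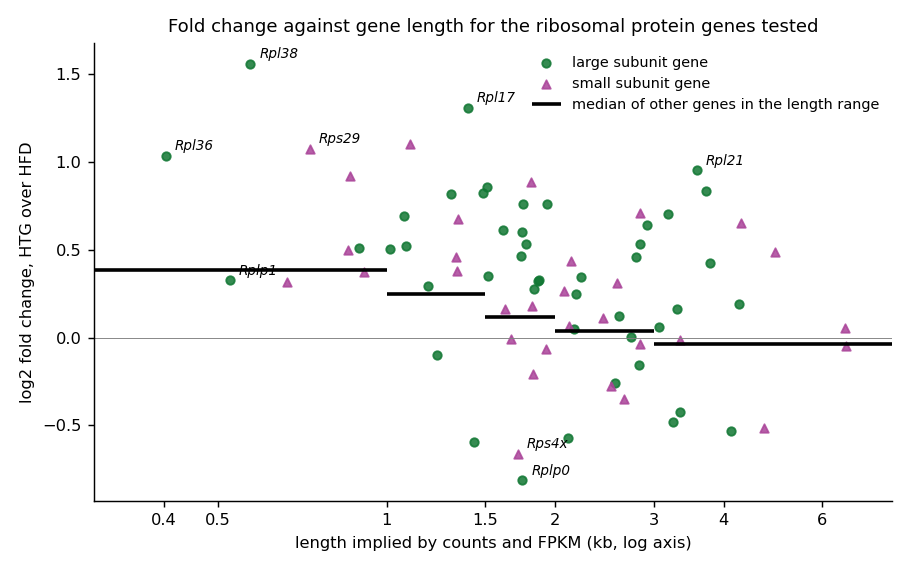
The log2 fold change, HTG over HFD, of each tested member (circles, large subunit; triangles, small subunit) is plotted against the gene length implied by counts and FPKM, in kb on a log axis. Black lines give the median of all other genes in each range of length, which goes from 0.38 under 1 kb to -0.04 at 3 kb or more.

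The members are spread over 19 chromosomes, with 14 genes on chromosome 7. Introns of ribosomal protein genes often hold small nucleolar RNAs, which guide the modification of ribosomal RNA, and 29 of 79 members (36.7%), 20 in the large subunit (41.7%) and 9 in the small subunit (29.0%), had a snoRNA row within them on the same strand, against 169 of 17713 protein-coding rows (0.954%). The median log2 fold change was 0.33 over the 29 hosts and 0.34 over the other 48 tested members. In all, 32 members overlap another row on the same strand and 18 on the opposite strand. Numbered pseudogene rows, 235 rows of 58 members, added 7.09% to 8.73% of the counts of the members themselves. Of the 127 pseudogene rows tested, 94 were fitted higher and 33 lower, with a median of 0.49, and such rows can take reads of the members. Summed over the 6 libraries, Rpl17 and Rpl21 alone had more counts in pseudogene rows than in their own row, which other members also had in single libraries.

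Other lists of the translation machinery were counted in the same fit. Counts are given at an unadjusted p under 0.05, which 12.3% (higher) and 12.4% (lower) of all genes reached in edgeR. Of 7 elongation factors, which deliver aminoacyl-tRNA and move the ribosome along, 1 was fitted higher and 6 lower (median -0.65), with 0 higher and 3 lower past the threshold. Eef2, which moves the ribosome by a codon, had 1398, 2068 and 1448 CPM in HFD libraries 1, 2 and 3 and 1071, 609.7 and 745 CPM in HTG libraries 1, 2 and 3, and Eef1a1, which delivers the tRNA, had 4145, 5529 and 4018 CPM in HFD libraries 1, 2 and 3 and 3430.1, 1950.4 and 2224 CPM in HTG libraries 1, 2 and 3. In both, the groups did not overlap, with log2 fold changes of -1.02 (SE 0.29, adjusted p = 0.087) and -0.85 (SE 0.29, adjusted p = 0.126), and both were named after their values were seen. The mRNAs of both are known for a terminal oligopyrimidine motif, and their own start sequences are not given here. The highest of the list was Eef1d (0.37, adjusted p = 0.266) and the lowest Eef1a2 (-2.18, adjusted p = 0.244), which was close to 0 CPM in HTG libraries 2 and 3. Of 30 initiation factors 4 were fitted higher and 26 lower (median -0.48), with 0 higher and 18 lower past the threshold, from Eif2s3x (-1.23, adjusted p = 0.0553), a subunit of the factor that brings the initiator tRNA, to Eif5b (0.30, adjusted p = 0.311), which joins the subunits. Other mRNAs known for a terminal oligopyrimidine motif, 13 genes, had a median of 0.11, with 2 higher and 2 lower, from Nap1l1 (-0.68, adjusted p = 0.240) to Snhg8 (0.79, adjusted p = 0.183).

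Among 46 genes of ribosome biogenesis 10 were fitted higher and 36 lower (median -0.20), with 1 higher, Riok1, a kinase of small subunit maturation (0.51, adjusted p = 0.156), and 9 lower, the lowest being the RNA helicase Ddx10 (-1.07, adjusted p = 0.0616). RNA polymerase I, which transcribes ribosomal RNA, and its factors had a median of 0.19 over 19 genes tested of 20, with 5 higher and 1 lower, from Polr1c (-0.64, adjusted p = 0.106) to Polr2f (1.18, adjusted p = 0.0613), a subunit shared by several polymerases. The list of mTORC1 and the control of translation had a median of -0.24 over 24 genes, with 1 higher and 8 lower, from Rragd (-2.19, adjusted p = 0.0538), a GTPase that brings mTORC1 to the lysosome, to Rps6kb2, an S6 kinase (0.67, adjusted p = 0.0657). Mitochondrial ribosomal proteins and the proteasome were counted as other large complexes. The former had a median of 0.15 over 78 genes, 49 fitted higher and 29 lower, with 18 higher and 10 lower past the threshold, from Mrpl53 (-1.54, adjusted p = 0.0612) to Mrpl54 (1.28, adjusted p = 0.0538). The proteasome had a median of -0.18 over 38 genes, 13 fitted higher and 25 lower, with 2 higher and 9 lower, from Psmd9, a chaperone of its assembly (-1.02, adjusted p = 0.0886) to Psmb9, a subunit of the immunoproteasome (0.63, adjusted p = 0.318). Differences between the lists were not tested.

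**Figure D5:**
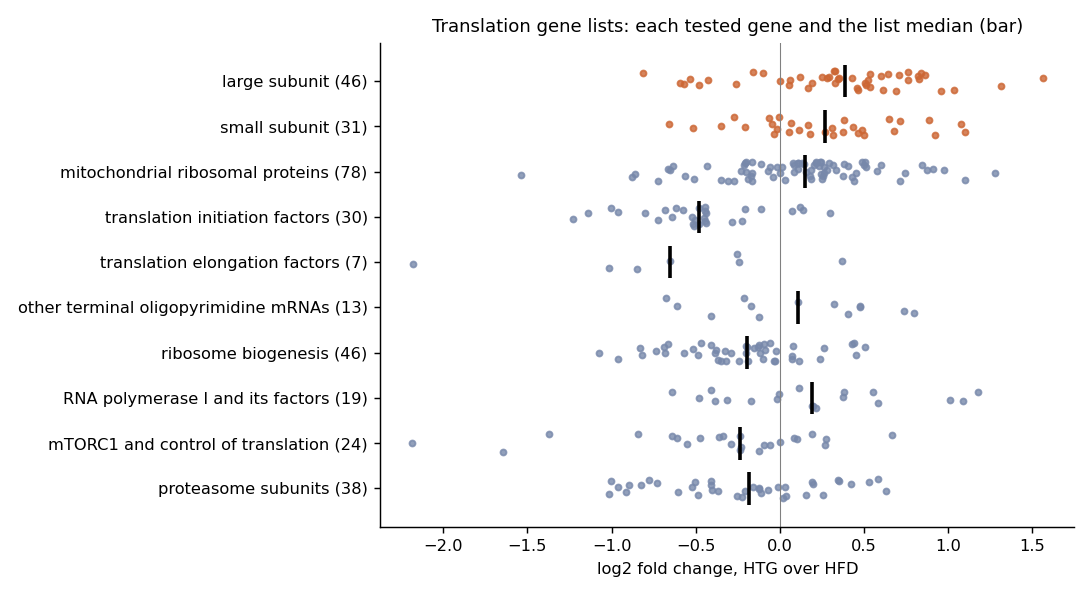
Each point is the log2 fold change, HTG over HFD, of a tested gene of a list, with the number of genes in brackets and a bar at the list's median. The medians are 0.39 and 0.27 in the large and small subunit, 0.15 in the mitochondrial ribosomal proteins, and -0.48 and -0.65 in the initiation and elongation factors.

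Markers of the cells that a piece of liver can hold were counted at the same unadjusted threshold, beside the members. In bulk RNA, fewer cells of a type and less RNA per cell cannot be told apart. The 10 hepatocyte markers had 2 higher and 3 lower (3 fitted higher and 7 lower, median -0.29), from Cps1 (-1.62) to Apoa1 (1.24). Kupffer cells and macrophages had 0 higher and 1 lower of 10 (1 fitted higher and 9 lower, median -0.36), from Adgre1 (-1.53) to C1qa (0.22), and a summed level of 543.8 to 973 CPM in the HFD libraries and 486 to 831 CPM in the HTG libraries. Leukocytes had 0 of 11 tested in either direction (8 fitted higher and 3 lower, median 0.07), from Itgam (-0.89) to Cd3g (0.52), at 67.9 to 82.8 CPM and 51.2 to 100.03 CPM. Stellate cells and fibroblasts had 1 higher and 1 lower of 10 (4 fitted higher and 6 lower, median -0.24), from Reln (-0.70) to Des (0.68), at 163 to 240.2 CPM and 148 to 201 CPM. Sinusoidal endothelium had 1 higher and 0 lower of 10 (8 fitted higher and 2 lower, median 0.30), from Lyve1 (-0.44) to Stab1 (0.74), at 102 to 233 CPM and 183 to 275 CPM. Cholangiocytes had 1 higher and 1 lower of 8 (4 fitted higher and 4 lower, median -0.0079), from Epcam (-0.95) to Sox9 (0.79), at 106 to 123 CPM and 84.2 to 154 CPM. Red cells had 0 higher and 1 lower of 8 tested (2 fitted higher and 6 lower, median -0.31), from Epb42 (-2.07) to Hba-a1 (0.86), at 235 to 431 CPM and 259 to 486 CPM. Proliferating cells had 0 higher and 3 lower of 10 (1 fitted higher and 9 lower, median -0.73), from Rrm2 (-1.92) to Birc5 (0.35), at 17.1 to 50.3 CPM and 12.6 to 25.9 CPM. In each of these lists the summed levels of the groups overlapped, no marker was at 0 in every library, and their part in the values of the ribosomal protein genes was not tested.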

How the data were processed

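Poly(A) RNA of 3 HFD and 3 HTG livers was sequenced in pairs, from libraries that the paper describes as strand-marked. For each gene the authors deposited an estimated count in whole numbers with no scaling between libraries, and its FPKM, scaled by transcript length and library total. The submitters' processing notes name HISAT2, StringTie, SAMtools and the rat build mRatBN7.2, while the rows are mouse genes; versions, filters and the counting's use of the strand are not given in the sources used here. Every column belonged to 1 of the 6 samples (0 others). The design counts 6 animals for the 6 libraries, and nothing further on the replicates is stated beyond the labels, so p-values measure the spread between these samples.

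The estimated counts were fitted over the whole table in R 4.3.3 with edgeR 4.0.16 (filterByExpr, TMM, glmQLFit and glmQLFTest, group as the only term). Alternatives were DESeq2 1.42.0, limma 3.58.1 on log2(FPKM + 0.1) and log2(FPKM + 1) where the mean FPKM reached 1, an open filter and a filter of 10 counts per library, scaling by DESeq2's size factors or the upper quartile, no mitochondrial rows, a replicate block, leaving out each library, counts divided by 4, the length trend removed, pseudogene rows added, and other thresholds. The fits were checked on simulated counts.

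The members and the gene lists (elongation and initiation factors, other terminal oligopyrimidine mRNAs, biogenesis, RNA polymerase I, mTORC1, ribosomal proteins of another name or outside the symbol rule, mitochondrial ribosomal proteins, proteasome, and 8 lists of cell markers) were chosen with earlier results of these data known. Named were, in each subunit, the 5 highest and 5 lowest fold changes, the 3 highest mean FPKM and any member under an adjusted p of 0.05. Also named by rule were the stalk, 5S, paralog and fusion genes, Rps6, Rpsa, Rack1, members not tested, and the extremes of each other list. Of rows with the same symbol, that with the most counts was used. The other members, Eef2 and Eef1a1 were named after their values were seen, and some genes that these rules name are not reported here. Start sequences were matched by symbol to RefSeq, rat assembly GRCr8.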

Additional observations from a re-analysis of the deposited data

How the results depend on the processing

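The number of members under an adjusted p of 0.05 depended on the tool and the filter. In the large subunit it was 0 in edgeR, 12 in DESeq2, 1 without a filter, 4 with at least 10 counts in every library, 3 in limma with either pseudocount, 5 with counts divided by 4, and 0 to 2 with each library left out. In the small subunit the values were 0, 6, 1, 2, 1 and 3, in the same order, and 0 with each library left out. Over all genes, the calls, higher and lower, were 1 and 1 in edgeR, 972 and 1199 in DESeq2, 86 and 76 without a filter, 369 and 315 with at least 10 counts, 326 and 552 or 329 and 555 in limma by pseudocount, 459 and 363 with counts divided by 4, and 0 to 234 and 0 to 419 with each library left out. In edgeR 11 large and 4 small subunit genes had an adjusted p under 0.1, and 22 and 9 an unadjusted p under 0.05. The causes were not tested.

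The replicate numbers gave no pairing: same-numbered libraries correlated in their deviations from the group means with r of -0.08, -0.07 and 0.10, not every library correlated best with its own number, and the samples share only a number. With the replicate block 0 members of either subunit had an adjusted p under 0.05, 0 had one under 0.1, and 21 large and 9 small subunit genes were higher at an unadjusted p under 0.05, and over all 18455 genes 0, 0 and 1926.

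As shares of summed FPKM, the difference between the groups turned to -0.0226 points in the large and -0.0460 in the small subunit. Of 37 tested members examined singly under 18 alternatives, 607 of 666 values kept their sign and their side of the threshold, 40 passed it, and 19 changed sign, in 7 members whose groups overlapped. Rps6 turned to 0.0043 with at least 10 counts, 0.034 with upper-quartile scaling, 0.0095 with counts divided by 4 and 0.019 with pseudogene rows, and went from -0.14 to 0.12 with each library left out (above 0 without HFD replicate 2 or HTG replicate 3). Rpsa turned to 0.019 with upper-quartile scaling and went from -0.17 to 0.057 with each library left out (above 0 without HFD replicate 2, HTG replicate 2 or HTG replicate 3), and Rps2 from -0.26 to 0.040 (above 0 without HFD replicate 2 or HTG replicate 2). Rpl10 went from -0.051 to 0.17 and Rpl22 from -0.10 to 0.25 (both below 0 without HFD replicate 3 or HTG replicate 1), and with the length trend removed Rpl10 was at -0.051. Rplp1 and Rps15 turned to -0.023 and -0.0019 with the length trend removed. Depth limits what can be said of Rpl3l and Rpl39l. Their counts were at or under the limit of 12 except for 36 (Rpl3l, HTG library 2) and 19 (Rpl39l, HFD library 3).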
